A study of Mus musculus with 8 samples.

Results

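CG methylation was described in the hippocampus of mice lacking DNA glycosylases at 6 genes that build the excitatory synapse: the neurexin Nrxn3, the neuroligin Nlgn1, and the postsynaptic scaffold genes Dlg2, Dlgap1, Dlgap2 and Shank2. They are 6 of the 4901 gene symbols and account for 41 of the 9329 region entries in the tables. Members were selected on the measured values, because each had a gene-body region with higher CG methylation in the knockouts, so the gains below are a description and no test was run on them. Genomic DNA of the whole hippocampus came from male C57BL/6N mice aged 6 months that were wild type (WT), lacked Mutyh (Mutyh-/-), lacked Ogg1 (Ogg1-/-) or lacked both after the single knockouts were crossed (DKO), with 2 whole-genome bisulfite libraries in each of the 4 groups. Ogg1 removes oxidised guanine from DNA and Mutyh removes the adenine mispaired with it, and each knockout was compared with the same WT libraries to ask where DNA methylation differs when these enzymes are missing. Whether libraries of a genotype derive from different animals is not given in the labels, which only number them, and the spread between them may be technical. The tissue is bulk, so a different mixture of cells and a different methylation level per cell cannot be told apart, and the methylation tables hold no measure that checks genotype or cell type.

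Neurexins sit on the presynaptic membrane and reach across the synaptic cleft to bind neuroligins on the postsynaptic side. Neurexin genes make long and short proteins from separate promoters. Beneath the postsynaptic membrane, scaffold proteins of the DLG family hold receptors and neuroligin tails through their PDZ domains. DLGAP proteins, also known as SAPAP or GKAP, attach to the guanylate kinase-like domain of the DLG proteins and in turn bind SHANK proteins, which connect this layer to Homer and the actin cytoskeleton. In the brain, cytosine methylation is densest at CG dinucleotides, and neurons also methylate cytosines outside CG, termed CHG and CHH, where H is any base but G.

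All 41 entries lay in gene bodies and none lay at a transcription start or end site. On GRCm38, Nrxn3 occupies chromosome 12 from 88722701 to 90334935 (1612 kb) and ranks number 9 in length among 21887 protein-coding genes of RefSeq. Dlg2 occupies chromosome 7 from 90476188 to 92449246 (1973 kb) and ranks number 7. Nlgn1 lies on chromosome 3 from 25421808 to 26332866 (911 kb), Dlgap1 on chromosome 17 from 69969073 to 70821413 (852 kb), and Dlgap2 on chromosome 8 from 14095776 to 14853426 (758 kb). Shank2, the shortest, lies on chromosome 7 from 143978077 to 144426043 (448 kb). Each entry corresponded to the body of a curated transcript, and in Nrxn3, Dlg2, Dlgap1 and Dlgap2 it began 1000 bp inside the transcript start. The entries were almost entirely intronic, since exons of curated transcripts filled between 0.432% of the Dlgap2 entry and 3.05% of the shorter Shank2 entry.

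The start windows of Nrxn3 and Dlg2 are shown because these genes have several entries that differ only in where transcription starts, and because no region at any of these starts was listed. Each window runs from 250 bases before to 50 bases after a RefSeq transcript start (GRCm38.p6, plus strand), with every CG in capitals. The 3 Nrxn3 windows precede its longest, middle and shortest entries and lie at chr12:88794254-88794553, chr12:88953140-88953439 and chr12:89812233-89812532. The Dlg2 windows precede its long and short entries and lie at chr7:91090536-91090835 and chr7:92062144-92062443.
Nrxn3 longest: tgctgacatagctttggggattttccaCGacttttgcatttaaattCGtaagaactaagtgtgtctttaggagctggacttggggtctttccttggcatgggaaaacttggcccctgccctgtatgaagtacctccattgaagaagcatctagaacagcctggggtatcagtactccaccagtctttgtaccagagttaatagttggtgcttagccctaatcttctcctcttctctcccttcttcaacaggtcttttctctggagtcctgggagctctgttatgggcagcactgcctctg
Nrxn3 middle: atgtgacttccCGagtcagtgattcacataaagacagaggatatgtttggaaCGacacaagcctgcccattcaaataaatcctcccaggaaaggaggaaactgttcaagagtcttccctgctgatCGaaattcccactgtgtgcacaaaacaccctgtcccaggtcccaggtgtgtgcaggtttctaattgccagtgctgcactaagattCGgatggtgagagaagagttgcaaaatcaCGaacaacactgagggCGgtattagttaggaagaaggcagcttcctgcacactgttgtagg
Nrxn3 shortest: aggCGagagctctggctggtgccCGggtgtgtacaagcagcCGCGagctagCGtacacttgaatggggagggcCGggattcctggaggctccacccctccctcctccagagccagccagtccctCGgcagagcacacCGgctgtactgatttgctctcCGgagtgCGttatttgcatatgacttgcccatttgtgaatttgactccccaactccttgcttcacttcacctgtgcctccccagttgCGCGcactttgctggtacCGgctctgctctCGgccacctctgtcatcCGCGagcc
Dlg2 long: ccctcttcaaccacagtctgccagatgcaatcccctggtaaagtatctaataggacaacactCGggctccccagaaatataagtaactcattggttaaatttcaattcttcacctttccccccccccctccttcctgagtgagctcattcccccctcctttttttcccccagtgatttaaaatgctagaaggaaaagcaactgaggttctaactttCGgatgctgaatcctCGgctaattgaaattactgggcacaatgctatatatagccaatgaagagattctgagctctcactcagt
Dlg2 short: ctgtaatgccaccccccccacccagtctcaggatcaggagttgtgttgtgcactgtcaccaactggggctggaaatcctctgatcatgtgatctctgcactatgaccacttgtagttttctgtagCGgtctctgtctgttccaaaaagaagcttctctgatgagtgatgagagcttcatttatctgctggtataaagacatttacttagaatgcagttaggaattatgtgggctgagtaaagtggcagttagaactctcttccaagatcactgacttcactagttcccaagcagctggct
The windows were unlike in CG content. The longest Nrxn3 entry had 2 CGs in its start window, the middle entry had 6 and the shortest entry had 16, while the Dlg2 windows had 3 and 1. The median over 32851 RefSeq windows of the same length was 7, and 33% of them had at least 16 CGs whereas 94.6% had at least 1.

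The bodies themselves fell into a CG-poor and a CG-richer set. The choice of members did not use CG content directly, but the authors' calls required a minimum number of cytosines close together. Whether this affects which genes are listed was not tested. The Nrxn3, Nlgn1 and Dlg2 genes are CG-poor, and their longest entries had 5.36, 5.33 and 5.33 CGs per kb. Those of Dlgap1, Dlgap2 and Shank2 had 10.5, 10.1 and 9.52 CGs per kb. GC content ranged from 37.3% in the longest Nlgn1 entry to 49.5% in the longest Shank2 entry. Over the 284 protein-coding genes at least as long as Shank2 (448 kb) the median was 6.77 CGs per kb, compared with 12.1 per kb over protein-coding genes of any length for which sequence was read. Long genes with a listed CG gain in all 3 knockouts had a median of 5.85 CGs per kb (96 genes), and long genes with no listed CG gain had 9.16 (74 genes). These medians are over whole genes and not over entries. As whole genes, Dlgap1, Dlgap2 and Shank2 had 8.88, 10.2 and 9.33 CGs per kb. They were therefore richer in CG than the median long gene with a gain, and no test of this was made.

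How each level was read has to be stated before the changes. The authors compared each of the 2 knockout libraries with each of the 2 WT libraries, and a region was kept only when all 4 library pairs passed their threshold, so each library has a separate reading in every pair. The reading is the deposited median over the cytosines kept in the region, turned into a percentage, and the level of a library is the mean of its 2 readings in that comparison. The depth behind a reading is unknown. The same WT library entered 6 pairs and was read very differently among them in long gene bodies. In Nlgn1, WT replicate 1 was read between 21% and 77% over its 6 pairs, whereas WT replicate 2 was read between 47% and 66%. Over the 10 distinct member entries listed in all 3 knockouts, the range of a WT library's readings ran from 11 to 56 percentage points. In 9 of the 20 cases it was larger than the mean change of that entry. Averaged over both WT libraries, the range had a median of 26 points in the members, 21 points in the 187 other gene bodies over 100 kb listed in all 3 knockouts, and 9 points in 51 shorter ones. Within a distinct entry the 4 WT readings spanned a median of 21 points and the 4 knockout readings 18 points, but the 4 differences spanned 8 points. Levels in these listed entries thus varied more between pairs than the differences within a pair did. The rule that all 4 pairs had to pass bounds the differences from below but not the readings. The narrower span of the differences therefore cannot be separated from that rule, and the source of the spread in levels was not tested.

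**Figure D1:**
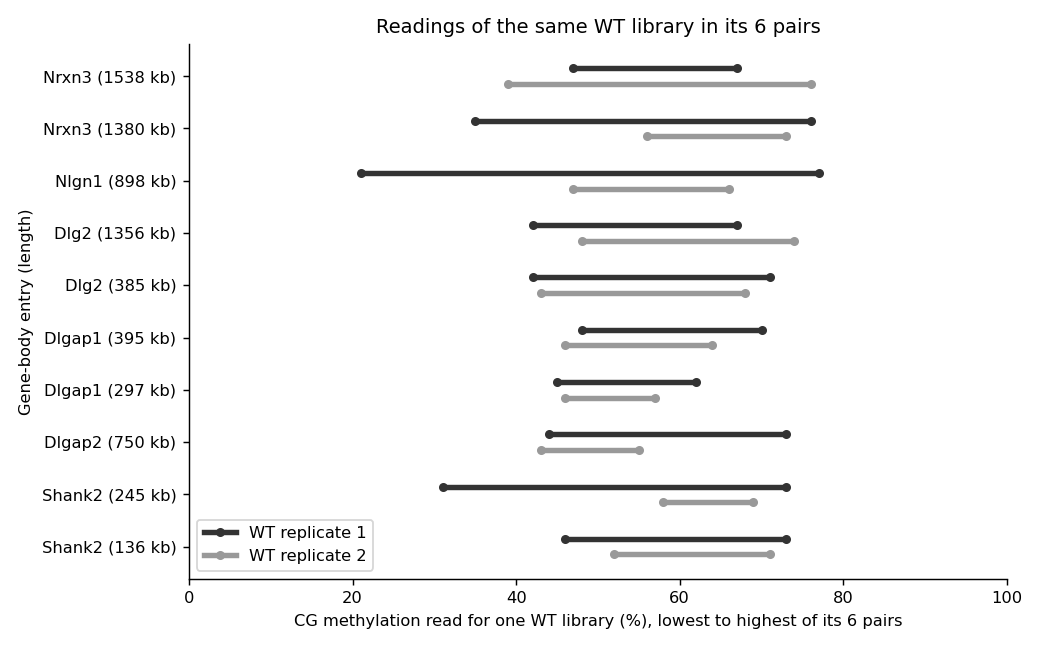
Lowest to highest CG methylation (%) read for WT replicate 1 (dark) and WT replicate 2 (light) in their 6 pairs, for each distinct gene-body entry listed in all 3 knockouts. WT replicate 1 spans 21% to 77% in Nlgn1, the widest range among these entries.

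Nrxn3 encodes a presynaptic neurexin and was the only member listed in more than 1 sequence context. In its longest entry (chr12:88795504-90333933, 1538 kb, 20 exons) the Mutyh-/- libraries were at 71.5% and 87.5% and the WT libraries at 63% and 56.5%. Both knockout libraries lay above both WT libraries, and the mean difference was 19.8 percentage points (79.5% ± 11.3 against 59.8% ± 4.6, SD, n = 2). In Ogg1-/- the levels were 63.5% and 86% against WT levels of 57% and 52%, a mean difference of 20.3 points. The Ogg1-/- libraries were further apart than in any other Nrxn3 comparison, with an SD of 15.9 points. Their levels lay above both WT levels, but single readings overlapped: the lowest Ogg1-/- reading was 56% and the highest WT reading 67%. Readings also overlapped in Mutyh-/-, where the lowest knockout reading was 61% and the highest WT reading 71%.
In DKO the levels were 89.5% and 79.5% against 54% and 65%, a mean difference of 25 points (84.5% ± 7.07 against 59.5% ± 7.78, SD, n = 2), with changes of 24 to 28 points in the 4 pairs.

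The middle entry of Nrxn3 (chr12:88954390-90333933, 1380 kb) shares most of its length with the longest and gained 21.8 points in Mutyh-/-, 24.3 points in Ogg1-/- and 21.3 points in DKO on average. The order of the knockouts thus differed between these entries of the same gene. In Mutyh-/- the readings of the middle entry overlapped, with a lowest knockout reading of 56% and a highest WT reading of 76%. Its Ogg1-/- libraries were at 94.5% and 86.5% against WT levels of 68% and 64.5%. In 1 Mutyh-/- pair and 1 DKO pair the knockout reading was 100%, the highest the scale allows, so the gain there could not have been larger.

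Nrxn3 was also the only member with a CHH region, and there methylation was lower in the knockouts. In the longest entry the Mutyh-/- libraries were at 22.5% and 23% CHH and the WT libraries at 46% and 38.5%, a fall of 19.5 points (22.8% ± 0.354 against 42.3% ± 5.30, SD, n = 2). The middle entry gave 25% and 19.5% against 37.5% and 38.5%. The shortest entry (chr12:89813483-90333933, 520 kb), which starts inside the gene after the CG-rich window, gave 27% and 25% against 47.5% and 44%. In all 3 entries every Mutyh-/- reading lay below every WT reading. In Ogg1-/- only the shortest entry was listed, with knockout libraries at 22.5% and 26% and WT libraries at 51% and 41.5%. The 4 pairs of that comparison fell by 14, 16, 26 and 32 points, so the size was less even than in Mutyh-/-, where the shortest entry changed by 19 to 21 points. DKO had no listed CHH region in Nrxn3, and the difference between DKO and the single knockouts was not tested. These CHH levels are medians over the cytosines kept by the authors' tool and not means over all CHH cytosines, of which the longest entry holds 56.9 for every CG.

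**Figure D2:**
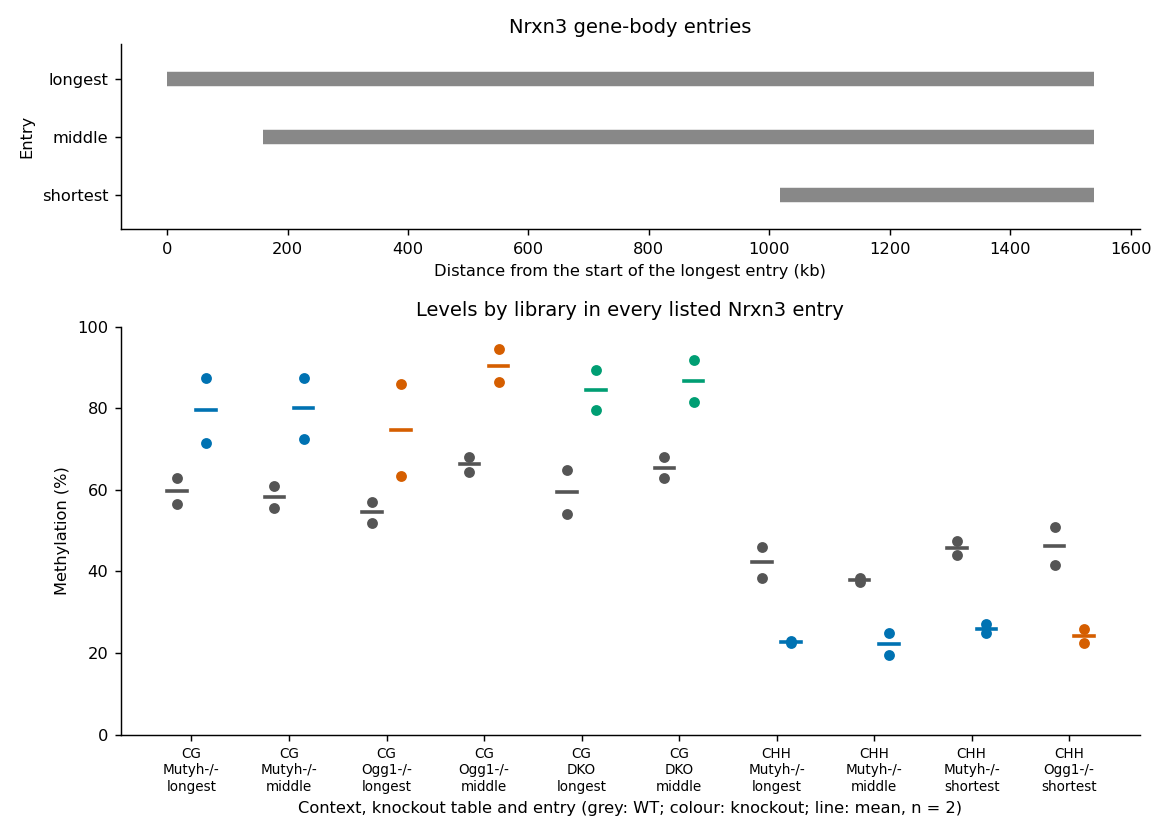
Top, the 3 Nrxn3 gene-body entries by distance (kb) from the start of the longest, all with a shared end. Bottom, methylation (%) of each library in every listed comparison, with WT in grey, knockouts in colour and lines for the mean of 2 libraries: CG levels lie higher in the knockouts and CHH levels lie lower, with CHH entries listed in Mutyh-/- and Ogg1-/- only.

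Nlgn1 encodes a neuroligin found mainly at excitatory synapses, and it was the member with the least even readings. In its longest entry (chr3:25432841-26330909, minus strand, 898 kb, 8 exons) the Mutyh-/- libraries were at 88.5% and 71% and the WT libraries at 45.5% and 63.5%, a mean difference of 25.3 points (79.8% ± 12.4 against 54.5% ± 12.7, SD, n = 2). The library levels did not overlap, but the readings did: 1 Mutyh-/- reading was 56% and 1 WT reading was 70%. In Ogg1-/- the libraries were at 83.5% and 88.5% against 74% and 55%, a mean difference of 21.5 points, again with overlapping readings. In DKO they were at 77.5% and 60.5% against 44% and 56.5%, a mean difference of 18.8 points. In that comparison WT replicate 1 was read at 67% in the pair with DKO replicate 1 and at 21% in the pair with DKO replicate 2, and the DKO readings of the same pairs were 90% and 35%. A second entry (chr3:25432841-26152307, 719 kb) that begins at a later promoter had identical values in every pair of all 3 comparisons, although the longer entry holds 4784 CGs and the shorter one 3820. The values listed for Nlgn1 thus do not separate its promoters.

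Dlg2 encodes a DLG scaffold that binds NMDA receptors and other partners through PDZ domains. Its long entry (chr7:91091786-92448246, 1356 kb, 23 exons) was at 87.5% and 81% in the Mutyh-/- libraries and at 63.5% and 68% in WT, a mean difference of 18.5 points (84.3% ± 4.6 against 65.8% ± 3.18, SD, n = 2). In Ogg1-/- the libraries were at 76.5% and 86% against 49.5% and 58%, a mean difference of 27.5 points, the largest of the 6 members in that knockout. The 4 Ogg1-/- pairs changed by 18, 22, 30 and 40 points. In DKO the levels were 90% and 79% against 59% and 65%, a mean difference of 22.5 points. No reading of a knockout overlapped a WT reading of the same comparison in either Dlg2 entry.

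The short Dlg2 entry (chr7:92063394-92448246, 385 kb, 15 exons) covers the last part of the gene, downstream of the start window with a single CG. Its gains were larger than those of the long entry in each comparison, with 26.5 against 18.5 points in Mutyh-/-, 29.8 against 27.5 points in Ogg1-/- and 32.5 against 22.5 points in DKO. Both readings of DKO replicate 2 were 100%, with changes of 37 and 50 points, while DKO replicate 1 was read at 82% and 81% with changes of 23 and 20 points. Without DKO replicate 2 the mean change of this entry was 21.5 points. The change of 50 points was the largest of the 124 pairs behind the 31 distinct CG entries of the members, and the smallest was 14 points, in Nlgn1. The difference between the entries was not tested, and they share 385 kb of sequence. Another Dlg2 start window at 92234720 holds 2 CGs and had no listed entry.

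Dlgap1 encodes a linker between DLG and SHANK proteins and had the smallest gains of the set in Ogg1-/- and DKO. In its longest entry (chr17:70425792-70820413, 395 kb, 12 exons) the Mutyh-/- libraries were at 74% and 75% against WT levels of 60% and 46%, a mean difference of 21.5 points (74.5% ± 0.707 against 53% ± 9.90, SD, n = 2). In Ogg1-/- the levels were 75.5% and 79.5% against 66% and 54.5%, a mean difference of 17.3 points, and the 4 pairs changed by 17 to 18 points, all close to the threshold of the calls. In DKO they were 83.5% and 70.5% against 58% and 60%, a mean difference of 18 points. One DKO reading (68%) equalled the highest WT reading of that comparison. A second entry that ends 4.68 kb earlier had identical values throughout. The entry that starts at 70523110 (297 kb) gave gains of 19.8, 20 and 22 points in Mutyh-/-, Ogg1-/- and DKO, with no overlap of readings. A further entry, from 70562747 to 70815729, was listed in Ogg1-/- alone, with knockout libraries at 76.5% and 78.5% against 58.5% and 59%.

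Dlgap2 encodes a paralogue of the same linker and had a single entry (chr8:14096875-14846686, 750 kb, 15 exons). The Mutyh-/- libraries were at 83.5% and 70% and the WT libraries at 64.5% and 50%, a mean difference of 19.5 points. In Ogg1-/- they were at 81.5% and 74.5% against 63% and 50%, a mean difference of 21.5 points. In DKO they were at 73% and 74% against 50% and 49%, a mean difference of 24 points (73.5% ± 0.707 against 49.5% ± 0.707, SD, n = 2). These DKO levels agreed closely between libraries, but the pair changes behind them were 16, 19, 26 and 35 points. The larger changes were the ones with DKO replicate 2, and without that library the mean change was 17.5 points. Single readings of Dlgap2 overlapped in Mutyh-/- only, with a lowest knockout reading of 67% and a highest WT reading of 73%.

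Shank2 encodes a SHANK scaffold, which sits deeper in the postsynaptic density and binds DLGAP proteins through its PDZ domain. Its longer entry (chr7:144176520-144421675, 245 kb, 16 exons) was at 84.5% and 85.5% in the Mutyh-/- libraries and at 52% and 66% in WT, a mean difference of 26 points (85% ± 0.707 against 59% ± 9.90, SD, n = 2), the largest of the 6 members in Mutyh-/-. That value rested more on WT replicate 1 than on WT replicate 2: the change was 19.5 points without the former and 32.5 points without the latter. In Ogg1-/- the levels were 80.5% and 89% against 62.5% and 65.5%, a mean difference of 20.8 points. In DKO they were 72.5% and 78.5% against 42% and 61.5%, a mean difference of 23.8 points. Here WT replicate 1 was read at 31% in the pair with DKO replicate 2, the lowest WT reading of Shank2, and that pair gave the largest change of the comparison, 38 points. The shorter entry (chr7:144285385-144421675, 136 kb, 11 exons) gave gains of 20.3, 21.3 and 21.8 points in Mutyh-/-, Ogg1-/- and DKO. Single readings overlapped in Ogg1-/- in both entries. The lowest knockout reading was 70% in the longer and 63% in the shorter, and the highest WT readings were 73% and 71%. In DKO readings overlapped in the shorter entry only, at 70% and 73%.

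**Figure D3:**
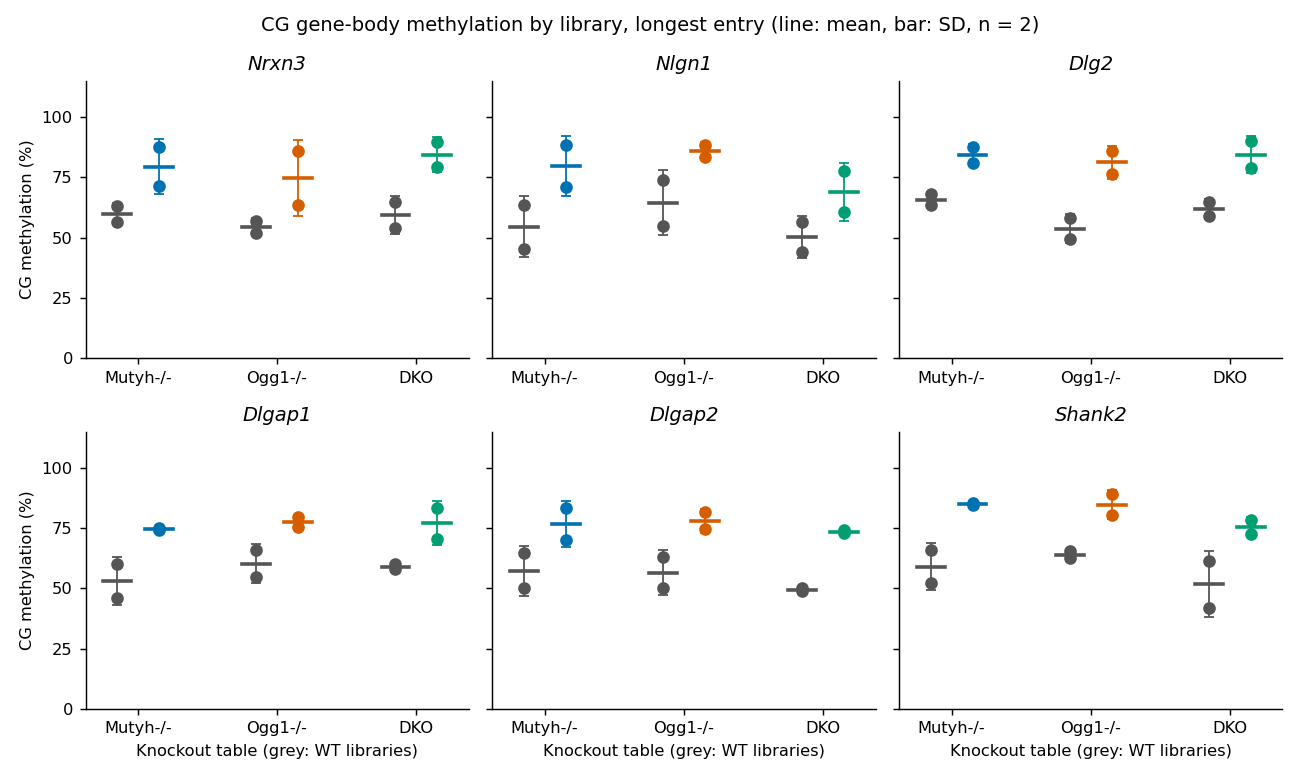
CG gene-body methylation (%) of each library in the longest entry of each gene, for the 3 knockouts, with WT in grey, lines for the mean and bars for the SD of 2 libraries. Both knockout libraries lie above both WT libraries in every panel and comparison, an order that the selection of called gains largely set.

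**Figure D4:**
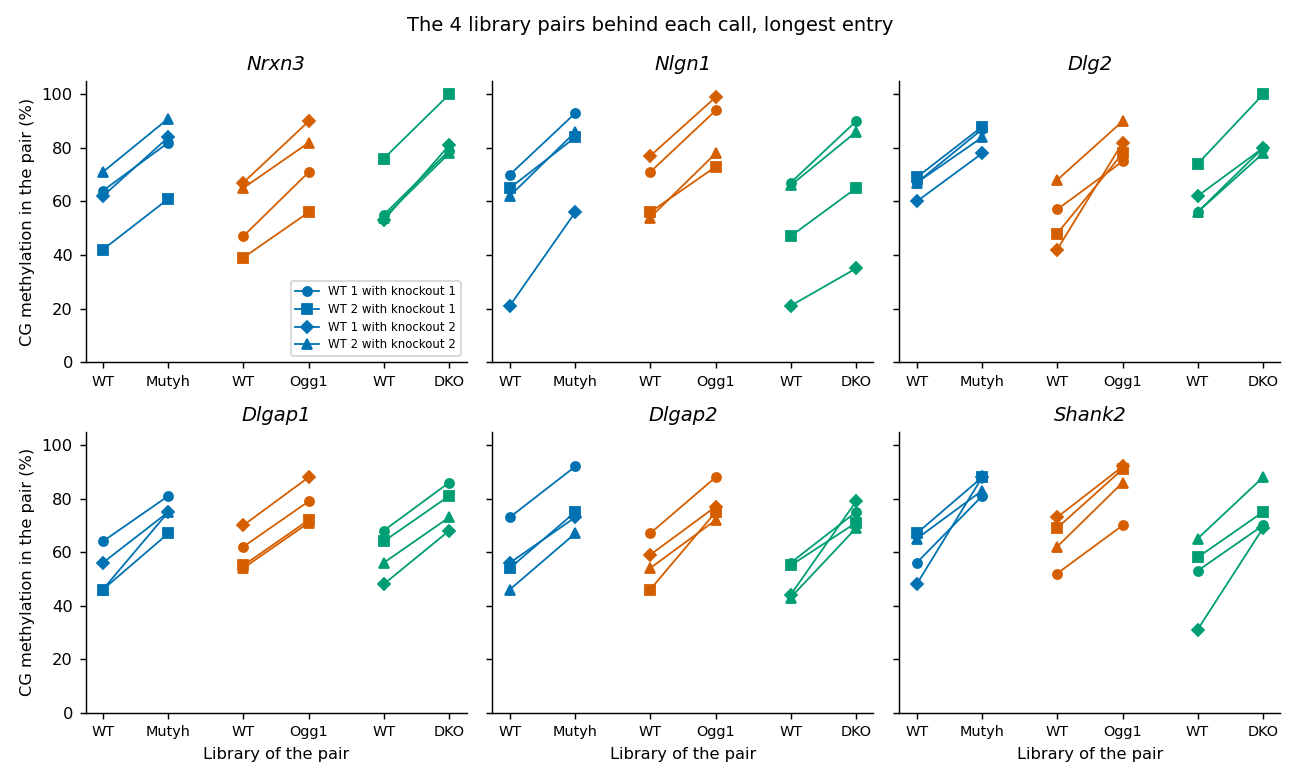
CG methylation (%) of the WT and the knockout library in each of the 4 pairs behind a call, longest entry of each gene. Every line rises, as the calls required. The height of the lines differs widely within Nlgn1, where WT readings in DKO pairs run from 21% to 67%.

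Set side by side, all 6 genes had a CG gene-body gain in all 3 knockouts, a count that the selection fixed. The background for this count is steep in gene length. Among all RefSeq protein-coding genes, 1.83% had a listed CG gene-body gain in Mutyh-/-, 1.84% in Ogg1-/- and 2.28% in DKO. Among the 284 protein-coding genes at least as long as Shank2, the shares were 50.4%, 53.5% and 58.8%. A gain in all 3 knockouts was listed for 33.8% of these long genes, 96 in number, so the members are among many long genes with this pattern and nothing about them is read from the count. In genes over 600 kb, which include 5 of the 6 members, 61.2% had a gain in Mutyh-/-, 62.5% in Ogg1-/- and 69.1% in DKO, compared with at most 0.174% of genes up to 30 kb. These shares are of annotated genes, as regions that were examined but not called are not used here.

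**Figure D5:**
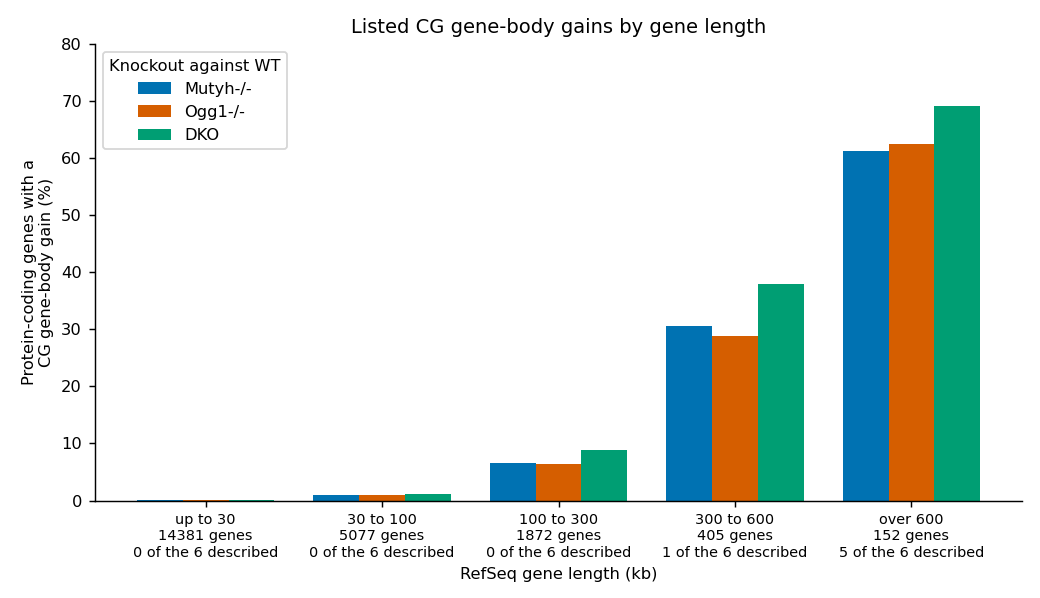
Share (%) of RefSeq protein-coding genes with a listed CG gene-body gain, by gene length (kb) and knockout, with the number of genes and of the 6 described genes under each group of bars. The share climbs to between 61.2% and 69.1% in genes over 600 kb, where 5 of the 6 lie.

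The sizes of the gains were also those of listed gains in general. The median change of the members' longest entries was 20.6 points for Mutyh-/-, 21.1 points for Ogg1-/- and 23.1 points for DKO. Over all genes with a listed gene-body gain the medians were 21.5 points (412 genes), 21.3 points (423 genes) and 21.3 points (521 genes). The members' median WT level was 58.1% in the Mutyh-/- comparison against 63.3% over all listed gains, 58.4% against 62.8% in Ogg1-/-, and 55.4% against 64.8% in DKO. Their median knockout level was lower as well, at 79.6% against 85.6%, 79.6% against 84% and 76.3% against 86% in the same order. The 3 comparisons reuse the same WT libraries. No test was made of these differences. Of the 31 distinct CG entries, the 2 knockout libraries lay above the 2 WT libraries in 31, but the single readings overlapped in 11.

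The knockouts did not order the members in a common way. Nlgn1, Dlgap1 and Shank2 had their largest mean change in Mutyh-/-, Dlg2 had it in Ogg1-/-, and Nrxn3 and Dlgap2 had it in DKO. Within a member the largest and the smallest of the 3 changes were 4.25 points apart in Dlgap1 and 9 points apart in Dlg2. Since the knockouts share the WT libraries and each WT library was itself read 11 to 56 points apart, neighbouring values in these orders were not distinguished, and their differences were not tested. The relative ratio, the change divided by the mean score of the pair, was between 0.0969 and 0.286 in the 124 pairs. Of these, 56 were from 0.10 to 0.12, close to the authors' threshold of 0.10, and 9 were above 0.2. A further 6, in 6 entries, came out below 0.10, and in all 6 a shift of both rounded medians by 0.5 points would reach it. The lowest, 0.0969, was in the long Dlg2 entry in Mutyh-/-, and regions just outside the threshold are not used here.

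CHH losses in gene bodies had their own background. They were listed for 4.99% of protein-coding genes in Mutyh-/-, 6.49% for Ogg1-/- and 2.77% for DKO, and for 25.4%, 33.8% and 11.6% of those at least as long as Shank2. Of the genes with a CG gene-body gain, 65 of 412 also had a CHH gene-body loss in Mutyh-/-, as did 99 of 423 for Ogg1-/- and 46 of 521 for DKO. Nrxn3 was 1 of the 65 and 1 of the 99. Among genes with a CG gain that are at least as long as Shank2, the counts were 32 of 143, 46 of 152 and 19 of 168. These shares, 22.4%, 30.3% and 11.3%, were no higher than the 25.4%, 33.8% and 11.6% of all genes that long. The other members had no listed CHH region, and no member had a CHG region.

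The same families hold shorter genes, which allowed the paralogues to be set beside the members. Of 17 neurexin, neuroligin, DLG, DLGAP and SHANK genes, 11 were not members, and 7 of these are under 100 kb long. The neurexin gene Nrxn2, of 114 kb, had no CG gene-body gain and instead had CHH losses in all 3 knockouts. Among the neuroligins, Nlgn3 (22.2 kb) had lower CG gene-body methylation in Ogg1-/-, at 64.8% ± 5.30 against 88% ± 6.36 (SD, n = 2), and Nlgn2 (14.7 kb) was lower at its transcription end site in Ogg1-/-, at 61.3% ± 1.77 against 84.8% ± 3.89. Dlg3 (51 kb) was lower in Mutyh-/-, at 58% ± 8.49 against 83% ± 9.90, and in Ogg1-/-, at 67.5% ± 1.41 against 88% ± 0, while Dlg1 (210 kb) was higher in Ogg1-/- only. The SD of 0 for Dlg3 is over library levels, each a mean of readings. The pair changes of that comparison ran from -25 to -18 points. Dlg4, which encodes the best known scaffold of the postsynaptic density, had no listed region, nor had Dlgap3, Dlgap4, Shank1 or Shank3. Nlgn2, Nlgn3, Dlg1, Dlg3 and the paralogues with no region were named after their values were seen.

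A wider list of 83 synapse genes held 77 besides the members, of which 40 had a listed region in any context and 37 had none. Over the whole annotation, 4425 symbols with a listed region matched a protein-coding gene, among 21887 such genes of any length. The share for a region in any context was not computed by gene length, so nothing particular to the list is read from the 40. Of the 77, 13, 19 and 16 had a CG gene-body gain in Mutyh-/-, Ogg1-/- and DKO, while 4, 6 and 5 had a CG gene-body loss. Over all protein-coding genes the gain shares were 1.83%, 1.84% and 2.28%, and 50.4%, 53.5% and 58.8% of those at least as long as Shank2. Across gene-length classes, losses were listed for 0.658% to 4.94%, 1.02% to 3.58% and 1.31% to 3.95% of genes in the same order of knockouts. A gain in all 3 knockouts was listed for 12 of the 77, against 0.8% of all protein-coding genes and 33.8% of the long ones. The largest mean gain was in Il1rapl1, a postsynaptic adhesion protein that pairs with presynaptic receptor phosphatases. Its libraries were at 100% and 86.5% in Mutyh-/- against 64.5% and 63.5%, at 78% and 82.5% in Ogg1-/- against 63.5% and 41.5%, and at 94% and 97.5% in DKO against 73.5% and 74%.

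Further postsynaptic adhesion genes with gains in all 3 knockouts were Lrrc4c, Il1rapl2 and Ntrk3. Lrrc4c, a netrin-G partner, gained 21.5, 26.5 and 25.3 points in the order Mutyh-/-, Ogg1-/- and DKO, and Ntrk3, a neurotrophin receptor that also binds receptor phosphatases, gained 20, 22.3 and 20.8 points. Il1rapl2, a relative of Il1rapl1, gained 21, 22.3 and 24 points. Of the scaffold genes, Magi2 gained 22.8, 21.8 and 25.8 points, Cask 20.5, 23.3 and 22.5 points, and Anks1b 21.5, 22 and 20.3 points, in the same order of knockouts. Magi2 and Cask are multi-PDZ and neurexin-binding scaffolds respectively, and Anks1b is a protein of the postsynaptic density.

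Among regulators of small GTPases bound to the scaffolds, Iqsec2, an Arf activator, gained 22.5, 23.3 and 25.8 points in Mutyh-/-, Ogg1-/- and DKO. Kalrn, an exchange factor of dendritic spines, gained 19.5, 21 and 24.8 points in the same order. The entries behind these values differed between knockouts. The Iqsec2 entry started at chrX:152180009 in DKO and at 152145268 in the single knockouts. The Kalrn entry started at chr16:34153025 in Mutyh-/- and at 33970073 in Ogg1-/- and DKO. On the presynaptic side, Ptprd, a receptor phosphatase that binds Il1rapl1, gained 23.5, 23 and 23.3 points. Its relative Ptprs moved the other way in CG gene bodies, with changes of -18, -18.25 and -17.25 points, the single list gene with a CG gene-body loss in all 3 knockouts, named after its values were seen. In CHH, Nrxn2 fell by 22.3, 19.5 and 17.8 points. Il1rapl1, Il1rapl2, Cask and Iqsec2 lie on the X chromosome. Neither direction nor count of this list was tested, and it was drawn up with earlier results of these data known. The secreted synaptic organisers include no gene as long as Shank2, while 12 of the 77 list genes besides the members are that long. Of the 12 organisers, none had a CG gene-body gain in Mutyh-/-, 1 had one in Ogg1-/- and 1 in DKO.

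Genes outside the list whose 12 library levels were most like those of a member were sought over the 215 genes listed for CG gene bodies in all 3 knockouts, with the root mean square difference as the measure. Dcc and 6530403H02Rik were nearest to Dlg2, at 3.68 and 5.55 points, against a median of 11.2 points over all candidates. Zbtb20 and Cdh8 were nearest to Dlgap2, at 5.14 and 5.25 points, and Vsnl1 and Sh3gl2 to Dlgap1, at 5.86 and 5.90 points. Tenm2 and Tnik were nearest to Shank2, at 6.02 and 6.07 points. Hs3st4 and Syt1 were nearest to Nrxn3, at 6.99 and 7.30 points, and Adam12 and Tnik to Nlgn1, at 8.87 and 8.94 points. Nlgn1 thus had the least close neighbours in points, but its median over all candidates was also the largest of the members, at 16.2 points. No listed region of another gene overlapped a member entry in the same context and knockout.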

How the data were processed

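Cytosine methylation was measured by whole-genome bisulfite sequencing of the hippocampus, with 2 libraries each for WT, Mutyh-/-, Ogg1-/- and DKO, grouped by their labels. According to the submitters' processing notes, FastQC and Bismark 0.22.3 were used with GRCm38. The authors removed cytosines of low coverage and called differentially methylated regions in start sites, end sites and gene bodies with HMST-Seq-Analyzer, taking 1 knockout and 1 WT library at a time and using the Wilcoxon rank-sum test. A region was deposited when all 4 pairs passed, so the tables hold called regions only. The deposited median of each library in each pair is a score from 1 to 2, read here as 1 plus the methylated fraction, and levels are the score minus 1, times 100. Medians are rounded to 1 percentage point. The relative ratio was recomputed as the difference of the knockout and WT scores over the mean of both. The deposited columns of relative ratios and p-values are the authors' own comparisons and were not used. The DKO table for CHG held no region.

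All rows naming a member gene were taken. Where a gene had several entries, its longest stood for it in medians, and entries with the same values in all pairs were counted as 1 (41 entries, 35 distinct). SDs are over 2 libraries. Coordinates are 1-based. Of 4901 symbols, 4425 matched a RefSeq protein-coding gene of GRCm38.p6 by name or synonym, and the background shares rest on these. CG content was read from that assembly, and start windows from RefSeq covered 4 of the 6 members. Values were computed with Python 3.11.15, and the level arithmetic was tested on simulated data. Named genes were the 6 members with every entry, up to 12 genes of the synapse list with regions in 2 or more knockouts in 1 context (ordered by number of knockouts, then mean size of change), the 2 genes most like each member, and genes with overlapping regions. The values of 1 gene named by this rule are not reported here. The members and lists were chosen with earlier results of these data known, so no test was run. Alternatives were stricter relative ratios, same-numbered pairs only, leaving out each library, the smallest pair, all entries, and, added after seeing the data, the shortest entry and leaving out each library in every distinct entry.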

Additional observations from a re-analysis of the deposited data

How the results depend on the processing

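Only regions with the same direction in all 4 pairs were deposited, so no alternative over pairs could turn a direction. A stricter relative ratio ended the calls: at 0.15 or at 0.2 in every pair, 0 of the 6 members remained in each of the 3 knockouts, and 62 of the 124 pairs had a ratio under 0.12. The share of all listed gains left at these ratios is not given here, so nothing particular to the members is read from this loss. Under the replicate block, with same-numbered pairs only, the median member change was 20.8 points for Mutyh-/-, 20.3 points for Ogg1-/- and 22 points for DKO. The labels do not say that a number marks a shared litter or day. With the smallest pair in place of the mean it was 17.5, 17.5 and 17 points. With all entries as deposited it was 21.5, 21.3 and 21.9 points. Leaving out each library gave 19.5 to 22.5 points, 20.3 to 21.8 points and 19 to 23.5 points in the same order. Over the distinct entries, 1 value moved by over 1.5 times when a library was left out: the short Dlg2 entry in DKO gave 21.5 points without DKO replicate 2, against 32.5 points. Among the longest entries the largest move was 1.4 times, for Shank2 in DKO without that library (17 against 23.8 points). The shortest entry of Dlg2 gave 26.5 points in Mutyh-/- and 32.5 in DKO. The planned limits on the p-values of the pairs were not run because they rest on the authors' own test. Depth per region is unknown, so no interval was computed, and changes smaller than the threshold cannot be seen in these tables.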
